A study of Mus musculus with 8 samples.

Results

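The peaks of N6-methyladenosine (m6A) that RAW264.7 macrophages carried without treatment were compared with those carried after TIP. RAW264.7 is an established mouse macrophage line. Each condition is represented by 1 RNA sample immunoprecipitated with an antibody against m6A and sequenced: cells with no treatment (control), and cells given 100 µM TIP for 24 h. TIP is an abbreviation of the labels, as are TBP and TCP, the compounds given to the other cells of the series at the same dose and time. The members are all peaks that the authors listed for these 2 samples, 4432 in control and 3034 in TIP, out of 20732 in the 4 peak lists of the series. A control peak that shared at least 1 bp with a TIP peak on the same strand is called kept, and any other control peak lost. A TIP peak that shared no base with a control peak is called gained. A gene is lost if it held a control peak and no TIP peak, and gained in the reverse case.

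Neither condition was replicated, so differences are described without a p-value. The 95% intervals in brackets are exact Clopper-Pearson intervals and cover counting error only. No read counts come with the lists and their depth is unknown; a lost peak is one that was not called. The RNA input samples were not analysed here, so fewer m6A marks per transcript and fewer transcripts cannot be told apart. All coordinates are on GRCm38 (mm10). Of the 8 macrophage markers, Csf1r, Cd68, Lyz2, Cd14, Mpeg1 and Spi1 held a control peak and Adgre1 and Itgam held none in either list, while 0 of 14 markers of other cell types held a peak in control or TIP.

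m6A is set on messenger RNA in the nucleus by a complex around METTL3 and METTL14, mostly on an adenosine followed by a cytosine, as in GAC or AAC. It is known to gather near stop codons, in 3′ UTRs and in long internal exons. Reader proteins of the YTH family bind it and change how a transcript is spliced, exported, translated or degraded, and in macrophages the mark is known to take part in inflammatory activation.

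Short peaks on the first bases of genes are shown as sequence because none of them was shared between the lists. There were 23 control peaks of up to 500 bp that touched the first 50 bases of the host gene, and 0 of them were kept. TIP had 5 such peaks, of which 0 lay over a control peak. TBP had 25 and TCP 21, and of the 23 control peaks 0 lay over a TBP peak and 4 over a TCP peak. The peaks were low in their lists: the highest ranked 1448 of 4432 in control and 1281 of 3034 in TIP. Of all control peaks 64.7% were lost, and of 5′ UTR peaks in the lower-scored 50% of that list 100 of 109 (91.7%). Of all TIP peaks 48.2% were gained, and of 5′ UTR peaks in the lower-scored 50% of that list 42 of 60 (70.0%). The lack of kept peaks at gene starts therefore cannot be told apart from their low rank. The sequences below, 4 of lost control peaks and the last 2 of gained TIP peaks, are RefSeq's for GRCm38.p6, read 5′ to 3′ on the strand of the gene, with GAC and AAC in capitals.
Ranbp1 (control, chr16:18248669-18248693, minus strand, 5′ UTR): gggggcggagggaagagcgGACggg
Ndufa8 (control, chr2:36049296-36049320, minus strand, 5′ UTR): ttggccagccaaagggGACttgaag
Sf3b6 (control, chr12:4817594-4817618, plus strand, 5′ UTR): tagtgtGACttggagcatcttttct
Ctss (control, chr3:95526811-95526835, plus strand, 5′ UTR): acaagctccgatttctttttagagt
Prcc (TIP, chr3:87885535-87885559, minus strand, 5′ UTR): cttggtgctaggagcttaagtgtag
Yars (TIP, chr4:129189910-129189934, plus strand, exon): gcAACccGACggGACtagcgtGACa
Ranbp1 encodes a regulator of the GTPase Ran, Ndufa8 a subunit of respiratory complex I, Sf3b6 a splicing factor of the U2 particle, Ctss the lysosomal protease cathepsin S and Yars the cytosolic tyrosyl-tRNA synthetase. A total of 13 start peaks of 25 bases lay whole in a RefSeq window, and 6 of them held GAC or AAC on the strand of the gene. The Sf3b6 peak starts at -14 bp from the RefSeq gene start. Its GAC lies before that start, although the listed class of the peak is 5′ UTR. Of all 32851 RefSeq windows, 42.97% held either in bases 26 to 50 from the start, read the same way. Most of the 13 peaks lay at other distances from the start, so that share is not for the same stretch. Of the 23 control start peaks, 4 overlapped a control peak on the other strand, and none of these is shown.

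Most control peaks were not found again after TIP. Of the 4432 control peaks, 2869 were lost (64.7%, 63.3 to 66.1) and 1563 kept. Of the 3034 TIP peaks, 1462 were gained (48.2%, 46.4 to 49.98) and 1572 lay over a control peak. The 4367 control peaks with a host gene lay in 2480 genes, of which 1016 were lost (41.0%, 39.0 to 42.9). The TIP peaks lay in 1794 genes, of which 330 were gained (18.4%, 16.6 to 20.3). The TIP list is the shorter one, so the lists were also compared at equal length, with the best-scored 3034 control peaks. Then 1568 control peaks were lost (51.7%) and 1553 TIP peaks gained (51.2%). Of the 1883 control genes left, 562 were lost (29.8%, 27.8 to 32.0), and 473 of the 1794 TIP genes were gained (26.4%, 24.3 to 28.5).

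Lost peaks were mainly those with low scores. Each list was split by score into 5 bins of 20%. In the highest control bin 27.8% of peaks were lost (24.9 to 30.9). The share was 44.6% in the next, 69.0% in the third, 88.7% in the fourth and 93.6% (91.7 to 95.1) in the lowest. Gained peaks followed the TIP scores more weakly, from 20.8% (17.6 to 24.2) in the highest bin to 66.0% (62.1 to 69.8) in the lowest. Of the 100 control peaks with the best scores, 33 were lost (23.9 to 43.1%). Width went with loss too: 84.6% of the control peaks of 25 bp were lost, 50.3% of those of 51 to 75 bp and 24.9% of those of 76 to 100 bp. The few peaks that spanned over 500 bp of genome were again mostly unshared, with 42 of 51 lost in control and 46 of 53 gained in TIP.

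**Figure D1:**
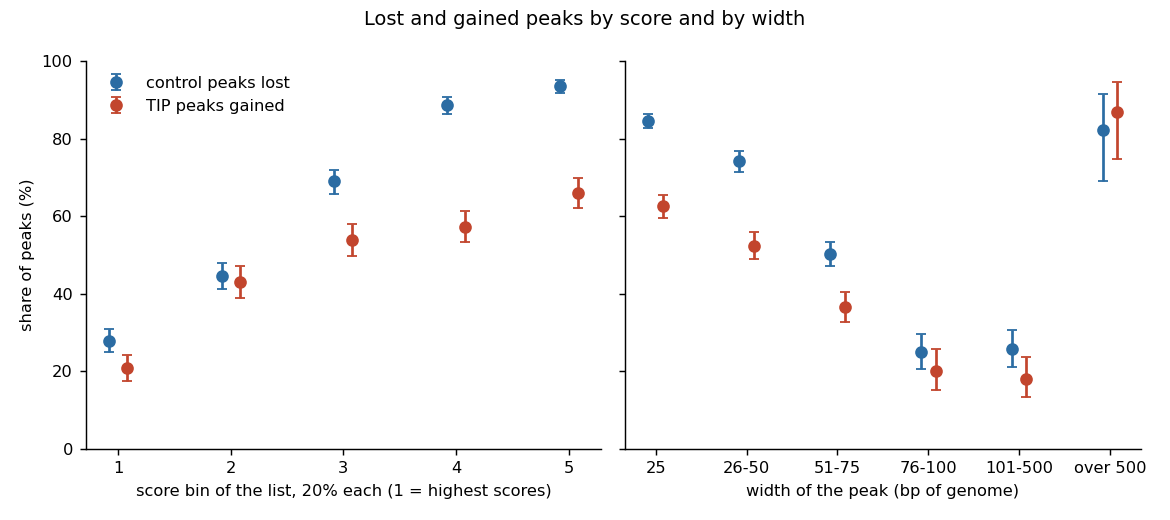
Share of control peaks lost and of TIP peaks gained (percent, y axes from 0 to 100), by bin of each list's own score on the left and by width of the peak in bp of genome on the right. Points are shares of all peaks in that class and bars are exact 95% intervals for counting error. The lost share climbs from 27.8% to 93.6% over the control score bins and the gained share from 20.8% to 66.0% over the TIP bins.

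Some lost peaks lay beside a TIP peak. Almost all peaks (98.2% in control, 97.8% in TIP) are whole multiples of 25 bp wide. Of the 2869 lost control peaks, 283 (9.86%) directly adjoined a TIP peak with no base between them. A further 119 (4.15%) lay 25 bp away from one. In turn 266 of the 1462 gained TIP peaks (18.2%) adjoined a control peak. When a gap of up to 100 bp still counted as shared, 52.4% of control peaks were lost and 32.9% of TIP peaks gained. Strand also limits the lists: 9 positions in control and 3 in TIP were listed on both strands with the same score, and 191 control and 109 TIP peaks overlapped a peak of their own list on the other strand. How the authors assigned strand is not given in the sources used here, so genes that overlap head to head or tail to tail cannot be told apart at such peaks.

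Lost and kept control peaks lay in 3′ UTRs about equally often, 50.4% (48.6 to 52.3) and 51.8% (49.3 to 54.3). Peaks in 5′ UTRs made up 4.85% (4.09 to 5.70) of the lost and 2.82% (2.05 to 3.76) of the kept. Read the other way, 139 of 183 control peaks in 5′ UTRs were lost, 75.96% (69.1 to 82.0), beside 64.7% of all control peaks. Of those among the best-scored 50% of control peaks, 39 of 74 were lost, 52.7% (40.8 to 64.4), beside 43.2% of 3′ UTR peaks with such scores, a share inside that interval.

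Gained TIP peaks lay less often in 3′ UTRs and last exons than the TIP peaks shared with control. In 3′ UTRs lay 45.9% (43.3 to 48.5) of gained peaks, against 51.5% (49.0 to 54.0) of the TIP peaks over a control peak. The peaks of gained genes did not share this, with 193 of 357 in 3′ UTRs (54.1%). Within a class the median distance from the 3′ end of the gene was similar. It was 1564 bp for gained and 1690 bp for shared 3′ UTR peaks, and 10597 and 10237 bp for peaks in exons outside UTRs. Among peaks placed in a numbered exon, 68.7% (65.2 to 72.1) of the gained lay in an internal exon and 25.7% (22.6 to 29.1) in the last. For TIP peaks over a control peak these shares were 54.0% (50.2 to 57.8) and 38.3% (34.6 to 42.0). The counting intervals of both pairs do not meet. The difference was there at equal list length, with 68.5% against 53.3% in internal exons, and among TIP peaks of like score. Of the best-scored 50% of TIP peaks, 44.3% in internal exons and 28.8% in last exons were gained, and of the other 50% these shares were 68.2% and 54.7%. Lost control peaks stood between, with 62.3% (59.6 to 65.0) in internal exons, against 55.4% (51.6 to 59.1) of kept ones.

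**Figure D2:**
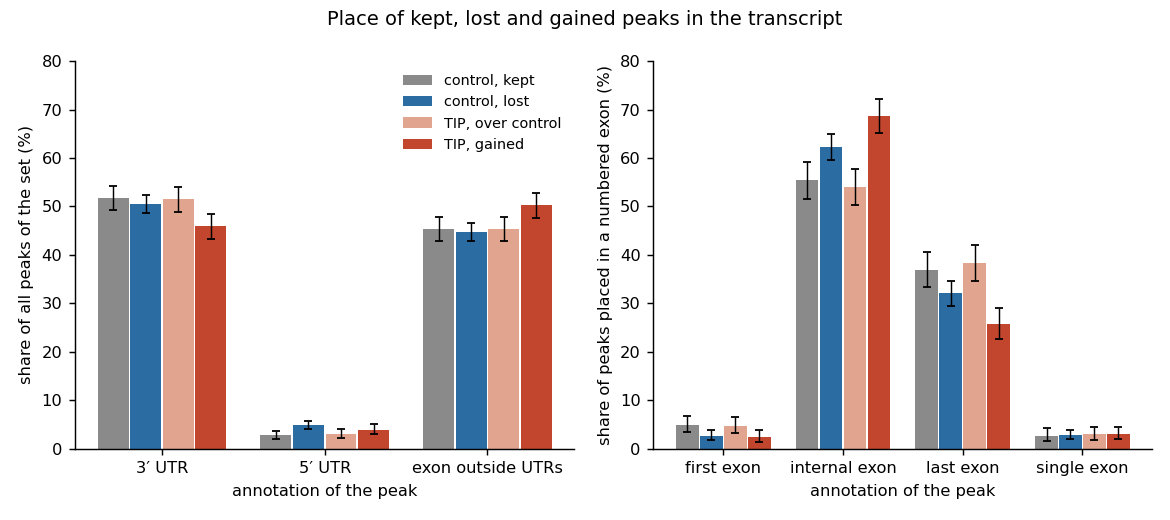
Share of peaks by annotation (percent, bars from 0) for kept and lost control peaks, TIP peaks over a control peak and gained TIP peaks; the left panel uses all peaks and the right panel those in a numbered exon. Error bars are exact 95% intervals for counting error. The gained TIP peaks have the highest internal-exon bar, 68.7%, and the lowest last-exon bar, 25.7%.

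The lists of the other compounds give a second reading of the same positions. Both are longer than the TIP list of 3034 peaks, with at least 4964 peaks in TBP and 5462 in TCP. Of the lost peaks, 45.7% lay over a TBP peak, 43.4% over a TCP peak and 37.3% (35.6 to 39.1) over neither. Of the kept peaks, 78.7% lay over a TBP peak, 78.4% over a TCP peak and 8.19% (6.88 to 9.66) over neither. Gained TIP peaks lay over a TBP peak in 29.9% of cases, over a TCP peak in 35.7% and over neither in 51.9% (49.3 to 54.5). Of the 1016 lost genes, 561 held a peak in both TBP and TCP and 161 in neither. Of the 330 gained genes, 153 held one in both and 59 in neither. The same counts for all control genes and all TIP genes were not computed, so these are not read as high or low.

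Whether a gene was lost followed the number of its control peaks. This is in part built into the definition, since 1 TIP peak anywhere in a gene is enough for it not to be lost. All peaks were lost in 839 of 1518 genes with 1 control peak (55.3%, 52.7 to 57.8) and in 134 of 535 with 2 (25.05%, 21.4 to 28.9). The count was 34 of 237 with 3 peaks, 6 of 76 with 4 and 3 of 55 with 5. None of the 59 genes with 6 or more was lost, which allows a share of up to 6.06% at the upper end of the interval. At equal list length the shares were 39.5% with 1 peak, 14.6% with 2 and 5.22% (12 of 230) with 3 or more. The share of TIP genes gained fell likewise with whole lists, from 25.65% with 1 TIP peak to 6.55% with 2 and 1.6% with 3.

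**Figure D3:**
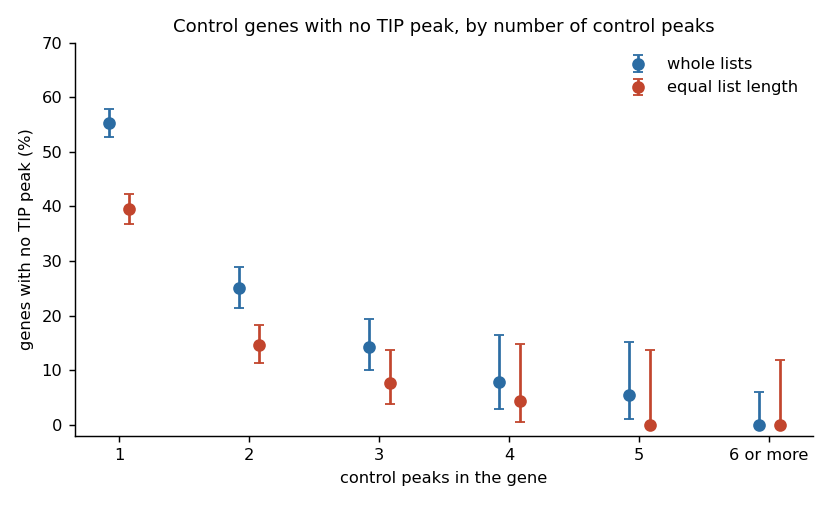
Share of control genes with no TIP peak (percent, y axis) against the number of control peaks in the gene (x axis), for the whole lists and at equal list length. Points are shares and bars exact 95% intervals for counting error. The share falls from 55.3% of genes with 1 control peak to 0 of 59 genes with 6 or more.

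A set of 43 genes with 3 or more control peaks, 141 peaks in all, had no TIP peak (10.1% of 427 such genes, 7.38 to 13.3). Of the 141 peaks, 65 lay in 3′ UTRs, 68 in exons outside UTRs and 8 in 5′ UTRs. The same genes held peaks elsewhere in the series: 38 of the 43 had one in both TBP and TCP, and 1 had none in either. Both of those lists are longer than that of TIP, and the share for all 427 genes was not computed. At equal list length 41 of the 43 still held a control peak, and 27 held 2 or more.

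The first of them was Naa15, the auxiliary subunit of the N-terminal acetyltransferase NatA. It had 5 peaks in control and 0 in TIP, against 7 after TBP and 6 after TCP. Its control peaks lay in exon 14 of 20 (chr3:51459967-51460041), in exon 20 (chr3:51472731-51472755) and in the 3′ UTR, where the peak at chr3:51472781-51472805 ranked 72 of 4432. Trps1, a GATA-type zinc finger repressor, had 5 control peaks, in exons 3, 4 and 6 of 6, and 0 in TIP, against 5 after TBP and 6 after TCP. Ssh2, a slingshot phosphatase that activates the actin-severing protein cofilin, had 5 control peaks, 4 of them in exons 14 and 15 of 15 and 1 in the 3′ UTR, and 0 in TIP, against 5 after TBP and 4 after TCP. In these 3 genes TIP alone stood at 0, and its list is the shortest of the series.

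With 4 control peaks each and 0 in TIP followed Ube2q1, a ubiquitin-conjugating enzyme, Pbrm1, a subunit of the PBAF chromatin remodeller, Jdp2, a repressor of AP-1, Adar, which deaminates adenosine to inosine in double-stranded RNA, and Ipo5, a nuclear import receptor. The Jdp2 peaks all lay in the 3′ UTR, within chr12:85639006-85639730. The Adar peaks lay in the 5′ UTR, in exon 2 of 15 (2 peaks) and in the 3′ UTR. TBP and TCP held 2 to 4 peaks in each of these 5 genes. Among the genes with 3 control peaks, the highest in the list included Ppm1a, a phosphatase of stress kinases, Ckap5, a microtubule polymerase, and Anxa5, a phospholipid-binding annexin. Also among the 43 were Arid1b of the SWI/SNF remodeller, Bcl2l1, which encodes the anti-apoptotic Bcl-xL, the spliceosome core protein Prpf8 and Vps39 of the HOPS tethering complex, with 3 control peaks each.

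Other lost genes had few peaks but high ones. Tmsb4x, thymosin beta 4, had 1 control peak, at rank 23 in its 3′ UTR (chrX:167207368-167207467), and 0 in TIP. Rsrp1, a nuclear protein rich in arginine and serine, had 2, the higher at rank 33 in its 3′ UTR. Pdia6, a disulfide isomerase of the endoplasmic reticulum, and Cpsf6, a subunit of cleavage factor I, had 2 each, the higher at rank 58 and rank 60. Pabpc1, the cytoplasmic poly(A)-binding protein, had 2, and its higher one, at rank 129, spanned 2451 bp from exon 1. Acat3 and Tcp1 share 1 such peak: the positions chr17:12924313-12924412 were listed on both strands at rank 132, in the 3′ UTR of each gene, so the peak cannot be given to either. Tmsb4x and Actb have near copies elsewhere in the genome, and how the authors treated reads with several matches is not given in the sources used here.

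Gained genes mostly had 1 peak. Of the 330, 305 had 1 TIP peak, 23 had 2 and 2 had 3, while 1189 of all 1794 TIP genes had 1. Of the 25 gained genes with 2 or more TIP peaks, 20 also held a peak in both TBP and TCP and 1 in neither. The counts for all TIP genes with 2 or more peaks were not computed. The 357 gained-gene peaks lay in 3′ UTRs in 193 cases and in exons outside UTRs in 149. Septin7, a filament-forming GTPase, had 3 TIP peaks in exons 11, 12 and 13 of 14 (the first at chr9:25301491-25301515), 0 in control, 0 in TBP and 1 in TCP. Mdn1, a giant ATPase of ribosome assembly, had 3 in exons 50, 79 and 87 of 102, with 0 in control, 2 in TBP and 4 in TCP. Khdc4, an RNA-binding KH-domain protein, had 2 in its 3′ UTR. Of these, chr3:88712530-88712654 stood at rank 17 in a large tie, since 317 of the 3034 TIP peaks ranked 17 or better. Foxo3, a forkhead transcription factor, had 1 in exon 3 of 4 (chr10:42196588-42196662) and 1 in the 3′ UTR. Gins3 of the replicative helicase, the nuclear export receptor Xpo1, Dido1, the translocon protein Sec62, the H3K4 methyltransferase Setd1a and Prps1l3, a relative of the phosphoribosyl pyrophosphate synthetases, had 2 each.

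Where a gene held peaks in both lists, the positions often differed. Of the 1464 such genes, 548 kept every control peak (37.4%, 35.0 to 40.0), 555 kept some and 361 kept none (24.7%, 22.5 to 27.0). In 125 of those 361 a TIP peak adjoined a control peak directly. The number of peaks was the same in 750 genes, lower in TIP in 502 and higher in 212. Of the 1444 gained peaks with a host gene, 1087 lay in a gene that had a control peak (75.3%, 73.0 to 77.5), 497 of them within 100 bp of one, with a median distance of 150 bp. Of the 2827 lost peaks with a host gene, 1579 lay in a gene with a TIP peak, at a median of 225 bp from it.

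In some genes the TIP list had fewer peaks. Kmt2d, an H3K4 methyltransferase, had 10 control peaks (7 at equal list length) and 3 in TIP, 2 of the 10 being kept. A TIP peak in exon 35 of 55 (chr15:98849727-98849801) adjoined a lost control peak there. Son, a splicing factor of nuclear speckles, had 15 and 10 with 7 kept, but 10 in each list at equal length. Emilin2, an extracellular matrix glycoprotein, had 9 and 4 (6 and 4 at equal length) with 3 kept, and Cenpf, a kinetochore protein, had 7 and 2 (5 and 2) with 1 kept. Cd14, the co-receptor of Tlr4 for lipopolysaccharide, had 7 and 2 (4 and 2), with 2 of the 7 kept. Slc16a1, the monocarboxylate transporter MCT1, had 7 and 2 (6 and 2) with 0 kept. Its control peaks lay mainly in exon 4 of 5, and the TIP peak at chr3:104653152-104653176 adjoined the control peak that ended 1 base before it. In all, 60 of the 1464 genes had at least 3 fewer TIP than control peaks and 16 at least 3 more. At equal list length the order turned: of 1321 genes in both lists 12 had at least 3 fewer and 33 at least 3 more.

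In others TIP had more. Ncl, which encodes nucleolin, went from 3 to 8 peaks with 0 kept. The control peak at chr1:86350469-86350568 in its 3′ UTR ranked 20, and a TIP peak at chr1:86350444-86350468 adjoined it. TIP also had peaks in exons 3, 4 and 7 of 14, where control had none. Tpr, a protein of the nuclear pore basket, went from 1 to 6, all 6 in internal exons, and Hnrnpm, a splicing regulator, from 2 to 6, of which 3 spanned over 500 bp. Scaf11, a splicing-associated factor, went from 2 to 6 with 0 kept, and its peaks at chr15:96419899-96419923 and chr15:96420449-96420473 each adjoined a control peak. Spop, a substrate adaptor of a ubiquitin ligase, went from 1 to 5 and Pura, a nucleic acid-binding protein, from 3 to 7.

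**Figure D4:**
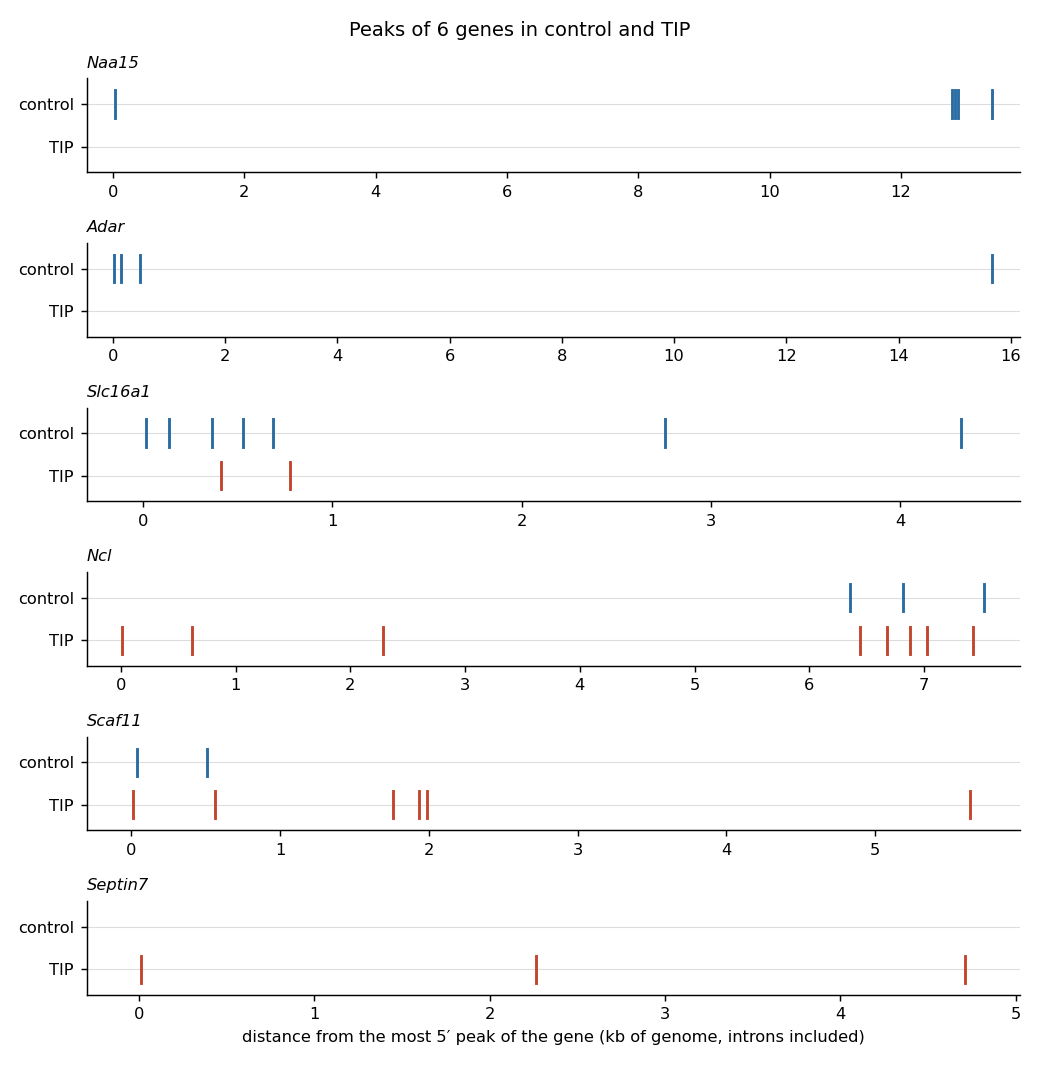
Positions of all peaks of 6 genes in control (upper row) and TIP (lower row), as distance in kb of genome from the most 5′ peak of either list. Each line marks the middle of a peak, blue for lost control peaks and red for gained TIP peaks; none of the peaks drawn is kept. Naa15 and Adar have control peaks only and Septin7 TIP peaks only, while Slc16a1, Ncl and Scaf11 have peaks of both lists next to one another.

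The genes with the most kept peaks had many peaks in both lists. Ahnak, a giant scaffold protein, had 31 control peaks (21 at equal list length) and 34 TIP peaks with 16 kept, and all TIP peaks lay in exon 5 of 5. Mki67, the proliferation antigen Ki-67, had 25 (18 at equal length) and 24 with 10 kept, mainly in exon 12 of 14. Macf1, a cytoskeletal crosslinker, had 12 (7 at equal length) and 12 with 6 kept. Mpeg1, which encodes the macrophage pore-forming protein perforin-2, had 8 and 11 with 6 kept, and Arhgap5, a GTPase-activating protein, had 9 and 6 with 5 kept.

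Gene groups were read against the share of all control genes that were lost, 41.0% with the whole lists and 29.8% at equal length, and gained members against the share of all TIP genes gained, 18.4% and 26.4%. Transcripts of the m6A machinery mostly held a peak in both lists. Of 6 methyltransferase-complex genes with a control peak, 1 was lost: Cbll1, which encodes the E3 ligase HAKAI, with 1 control peak that overlaps a control peak on the other strand and so may belong to another gene. Rbm15, an adaptor of the complex, had 5 control and 3 TIP peaks, and its scaffold Virma had 2 and 2. Of 8 readers and demethylases, 1 was lost: the demethylase Fto, whose 1 control peak ranked 3772. The intervals of both lists (0.421 to 64.1% and 0.316 to 52.7%) hold 41.0%. The readers Ythdf1, Ythdf2 and Ythdf3 had 2, 4 and 6 control peaks and 2, 4 and 4 TIP peaks. Equal counts do not mean the same positions: 15 of 24 control peaks of readers and demethylases were lost (62.5%), beside 64.7% of all. In the methyltransferase complex 5 of 13 were lost (38.5%). The median rank of the best control peak of a gene was 688.5 there, against 1698 for all control genes. Pcif1, which methylates adenosine beside the cap, was gained with 1 peak.

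Of 14 macrophage identity genes with a control peak, 5 were lost (35.7%, 12.8 to 64.9), a share near that of all genes. Lyz2, which encodes lysozyme, and Trem2, a lipid-sensing receptor, had 2 control peaks each. Spi1, the macrophage transcription factor PU.1, Cd68, a lysosomal glycoprotein, and Ctss had 1 each. All had 0 in TIP. Csf1r, which encodes the M-CSF receptor, had 4 peaks in each list, of which 0 overlapped. Tyrobp, the signalling adaptor of Trem2, was gained with 1 peak. Of 10 genes of Toll-like receptors and their adaptors, 3 were lost (Tlr1, Tlr6 and Ticam2, each with 1 control peak at rank 2938 or lower), and 0 of 7 at equal list length. Tlr2 went from 8 to 6 peaks, Tlr7 from 9 to 5 and Tlr4 from 2 to 1. Of 4 cytokine and chemokine genes with a control peak, the chemokines Ccl3 and Ccl9 and Spp1, osteopontin, were lost with 1 peak each, and Tnf had 1 in both lists. Nfkbia, the inhibitor of NF-kB, had 1 control peak of 25 bp at rank 196 in its 3′ UTR (chr12:55489910-55489934) and 0 in TIP, and the NF-kB subunit gene Nfkb1 had 1 in both. In the interferon list 3 of 8 were lost, the receptor chains Ifngr1 and Ifngr2 and the transcription factor Stat6.

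Some groups had lower lost shares than all genes, but with the whole lists only the interval of the cell cycle list lies below 41.0%. Several held high-scored peaks. The median rank of a gene's best control peak was 669 for MAP kinase, 273 for endoplasmic reticulum stress, 960 for methyltransferases and 737 for ubiquitin genes. It was 1698 for all control genes, 1581 for cell cycle, 1698 for remodellers and for cholesterol, and 2610 for apoptosis. Whether these shares differ at like score was not tested. Of 10 cell cycle and p53 genes with a control peak, 0 were lost (0 to 30.8%), among them Mdm2 and Mdm4, which restrain p53, with 2 peaks in each list, and the transcription factor E2f1 with 1 in each. At equal list length 0 of 8 were lost, beside 29.8% of all genes, and no interval was computed there. Of their 40 control peaks 24 were lost (60%), and Mki67 alone held 25 of the 40, with 15 lost. Of 11 genes of the MAP kinase cascade 1 was lost (9.09%, 0.230 to 41.3), the kinase Map2k3, and 3 of their 15 control peaks were lost (20%), beside 64.7% of all control peaks. The feedback inhibitor Spry2 was gained with 1 peak. Of 17 genes of endoplasmic reticulum stress 3 were lost (17.6%, 3.80 to 43.4): Pdia6, the chaperone Hyou1 and Herpud1, which acts in degradation of misfolded proteins. The chaperone Hspa5 went from 4 to 7 peaks, and Atf4, the transcription factor of the integrated stress response, was gained with 1. In this list 25 of 42 control peaks were lost (59.5%). Of 25 histone and DNA methyltransferases, acetylases and TET enzymes 6 were lost (24.0%, 9.36 to 45.1), among them Dnmt1, the maintenance DNA methyltransferase, and Dot1l, which methylates H3K79. Of the 9 with a single control peak 6 were lost (66.7%), beside 55.3% of all such genes, and 45 of 84 control peaks were lost (53.6%). Of 22 chromatin remodellers and histone demethylases 6 were lost (27.3%, 10.7 to 50.2), among them Arid1b and the bromodomain proteins Brd1 and Brd2, while 31 of 47 control peaks were lost (66.0%), close to the 64.7% of all. Lower shares with intervals that hold 41.0% were also found for 15 cholesterol and nuclear receptor genes, of which 3 were lost (20%, 4.33 to 48.1), for 30 ubiquitin ligases and deubiquitinases (26.7%, 12.3 to 45.9) and for 9 apoptosis genes (22.2%, 2.81 to 60.0), with Bcl2l1 and Bmf lost and Birc5, survivin, gained. In the cholesterol list 5 of 17 TIP genes were gained (29.4%), beside 18.4% of all TIP genes, and 5 of 17 at equal length, beside 26.4%. Among them were Abca1, a cholesterol exporter, and Srebf2, the regulator of sterol synthesis.

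The actin cytoskeleton had one of the highest lost shares. Of 22 with a control peak 15 were lost (68.2%, 45.1 to 86.1), and 11 of 17 at equal list length (64.7%). The lost ones included beta-actin (Actb, 2 control peaks, the higher at rank 216 in exon 6 of 6), Actr2, Arpc2 and Arpc3 of the Arp2/3 complex, the filamin Flna, talin (Tln1), the intermediate filament vimentin (Vim), the integrin chain Itgb1, the GTPases Rhoa and Cdc42 and Tmsb4x. Most of these genes had a single control peak: of the 13 with 1 peak, 11 were lost (84.6%), beside 55.3% of all genes with 1 control peak. Ahnak, the integrin chain Itga4 with 12 control and 9 TIP peaks and the actin bundler Lcp1 with 2 and 4 were among the 7 in both lists. Of the 72 control peaks in the list 52 were lost (72.2%), beside 64.7% of all.

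Ribosomal protein genes behaved alike in one respect: all 23 control peaks in cytosolic ribosomal protein genes were lost, beside 64.7% of all control peaks, and all 9 TIP peaks were gained, beside 48.2%. Scores were low in these genes, with a median rank of 2323 for the best control peak of a gene, against 1698 for all control genes. Of the 17 genes with a control peak, 12 were lost (70.6%, 44.0 to 89.7), and 6 of 11 at equal list length. The other 5, among them Rpl4, Rpl7l1, Rpl8 and Rps3, held peaks in both lists at positions that did not overlap. The control peaks lay in exons outside UTRs in 12 cases, in 3′ UTRs in 9 and in 5′ UTRs in 2. Ribosomal protein genes have many near copies in the genome, with the same limit as for Tmsb4x. Of 37 genes of the mitochondrial ribosome and respiratory chain 22 were lost (59.5%, 42.1 to 75.3), and 14 of 26 at equal length (53.8%). The median best rank was 2323 here too. In this list 12 of its 27 TIP genes (44.4%) were gained, beside 18.4% of all TIP genes. Mrps26 and Mrpl43, proteins of the mitochondrial ribosome, and Atp5b, the catalytic subunit of ATP synthase, each had 2 control peaks and 0 in TIP. A Mrpl43 peak (chr19:45005654-45005678, minus strand) overlaps a control peak in the 5′ UTR of Twnk, which encodes the mitochondrial DNA helicase, on the plus strand at the same rank, 2107, so it cannot be given to either gene. Mrps27 and the cytochrome oxidase subunit genes Cox4i1, Cox6c and Cox7b had 0 in control and 1 or 2 in TIP.

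Translation factors had a low lost share. Their scores were high, with a median rank of 708 for the best control peak of a gene, against 1698 for all control genes. Of 12 initiation and elongation factor genes with a control peak 2 were lost (16.7%, 2.09 to 48.4), Eif3b and Eif3c, each with 1 peak at rank 3772, and 0 of 10 at equal list length. Of 16 with a TIP peak 6 were gained (37.5%, with the whole lists and at equal length), beside 18.4% and 26.4% of all TIP genes, among them Eif5, Eif5a and Eif3l. Eif4g2 went from 1 to 5 peaks, Eif4g1 had 6 in both lists and Eif3a had 7 and 6. Even so, 24 of the 34 control peaks in these genes were lost (70.6%), beside 64.7% of all.

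In the remaining lists the lost share of genes was within 10 percentage points of 41.0%, or the list held fewer than 8 genes with a control peak. Of 36 splicing factor and RNA helicase genes 15 were lost (41.7%, 25.5 to 59.2), among them Prpf8, Luc7l3, Srsf6 and Ddx5. Of 21 genes of 3′ processing and mRNA decay 8 were lost (38.1%), among them Pabpc1, Cpsf6, Cpsf4 and the decapping enzyme Dcp2, and 4 of 17 TIP genes were gained (23.5%), beside 18.4% of all. In the small microRNA list, Ago2, the slicing Argonaute, went from 2 peaks to 0 and Dicer1, which cuts microRNA precursors, from 0 to 1. Lost shares were 42.2% (29.9 to 55.2) for 64 Zfp zinc finger genes, 40.4% (27.0 to 54.9) for 52 solute carriers, 46.2% for 13 endosome and lysosome genes, 41.7% for 12 genes of PI3K and mTOR signalling and 37.5% for 8 NRF2 and antioxidant genes. In the endosome list 17 of 20 control peaks were lost (85.0%), beside 64.7% of all. Scores were low there, with a median rank of 2303 for the best control peak of a gene, against 1698 for all control genes. In the same list 5 of 12 TIP genes were gained (41.7%), and 8 of 12 at equal length (66.7%), beside 18.4% and 26.4% of all. Among them were the GTPases Rab7 and Rab1a and the lysosomal membrane protein Lamp2. Of 4 histone genes with a control peak 2 were lost, H1f3 and H2bc18, the latter at a position that overlaps a control peak on the other strand.

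**Figure D5:**
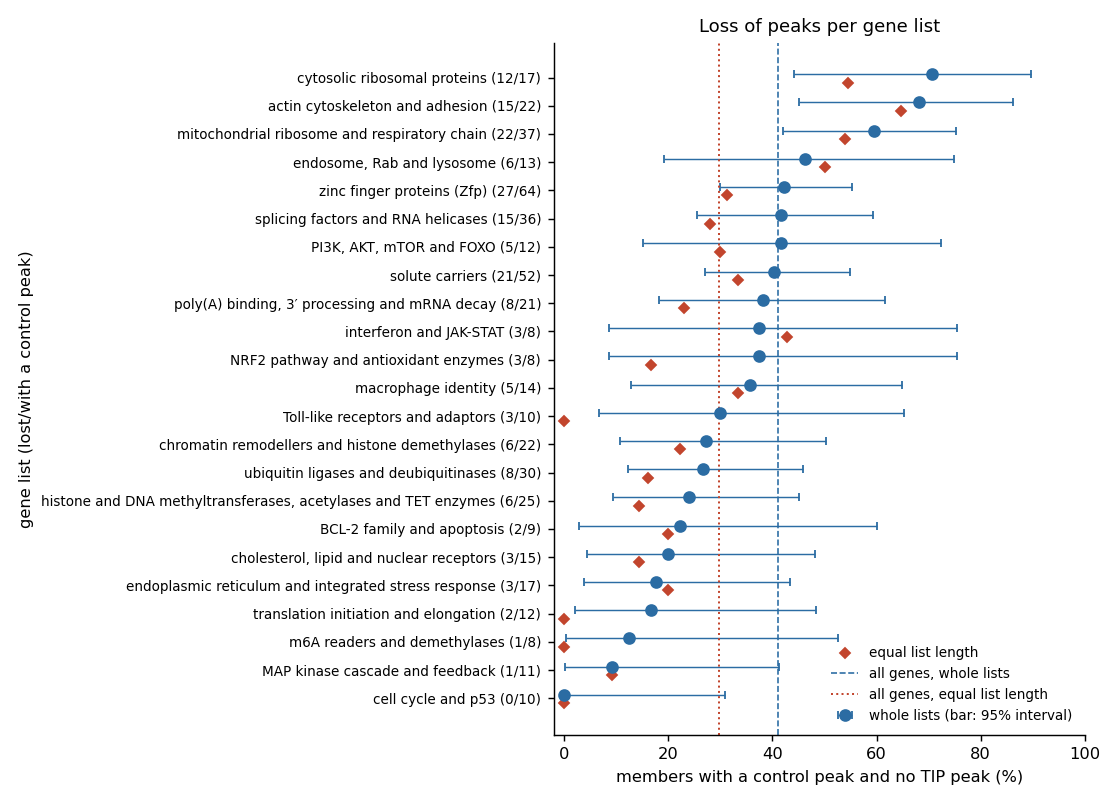
Share of the members with a control peak that had no TIP peak (percent, x axis) for the 23 gene lists with at least 8 such members; blue points are the whole lists with exact 95% intervals for counting error and red diamonds equal list length. The dashed and dotted lines mark the shares of all control genes, 41.0% and 29.8%. Cytosolic ribosomal proteins, actin cytoskeleton and mitochondrial ribosome lie highest, at 70.6%, 68.2% and 59.5%, and cell cycle and p53 lowest, at 0 of 10.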

How the data were processed

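Each deposited list gives, per peak, the authors' position, strand, annotation class, nearest gene and a score. The score has no stated scale and a different lowest value in each list (8.59 in control, 10.7 in TIP), so it was used to rank peaks within a list, ties sharing the best rank. The control list has 223 distinct scores and the TIP list 44, so TIP ranks are coarser. Per the submitters' processing notes, the tools include HISAT2 2.1.0, ChIPseeker 1.26 and HOMER 4.11, and the genome builds are GRCm38 and mm10. Which program called the peaks, at what threshold and against which background is not given in the sources used here.

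Lists were compared in Python 3.11.15 with pandas 2.3.3, tested on simulated lists with planted overlaps. A peak's host gene is the gene of its exon annotation, else the nearest gene if it holds the peak on the same strand. Failing both, it is the only RefSeq gene, or the only protein-coding one, that overlaps the peak on that strand. Genes of unknown strand, which hold 3.14% of the placed control peaks and 2.97% of the TIP peaks, were accepted on either strand. These rules placed 98.5% of control and 98.6% of TIP peaks. The host differed from the authors' nearest gene for 23.4% and 22.5% of the placed peaks. At equal length, ties at the limit were taken in position order. Intervals are from scipy 1.17.1.

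Members and gene lists were chosen with earlier results of these data known; the 29 lists support nothing by themselves. Genes are named by rule, leaving out unnamed genes, small RNAs and pseudogenes: the 12 lost genes with most control peaks, the 8 lost with the best rank, the 10 gained with most TIP peaks, the 6 shared genes with the largest fall, rise and number of kept peaks, and up to 4 lost or gained members per list. Other list members were named after their values were seen, and a few genes are not reported here. Alternatives were a 50% overlap of the shorter peak, a gap of up to 100 bp, strand ignored, equal length, scores at or above each list's median, peaks of up to 500 bp, the nearest gene as listed and merging of peaks within 100 bp.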

Additional observations from a re-analysis of the deposited data

How the results depend on the processing

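The lists' length and the definition of a shared peak set the size of the main shares. Lost control peaks were 52.4% with a gap of up to 100 bp allowed, 51.7% at equal list length and 61.3% at or above the median score, where the whole lists gave 64.7%. Gained TIP peaks were 32.9%, 51.2% and 43.1% under the same settings, against 48.2%. Lost control genes were 29.8% at equal length and 45.7% at or above the median score, against 41.0%, and gained TIP genes 26.4% and 23.2%, against 18.4%. The 3′ UTR share of lost peaks was 53% and 54.4%, and their 5′ UTR share 4.08% and 3.76%, at equal length and at or above the median score. Genes with 3 or more control peaks that lost all were 5.22% at equal length, against 10.1%. With the nearest gene as listed, 4 gene lists lay above the share of all genes, against 7, and 3 lists did so under both; actin and ribosomal lists were at 70.6% and 80.0%, the endosome list at 33.3%. The lost share of translation factors was 0% at equal length, against 16.7%. No paired analysis was possible because each condition has 1 library. Depth is unknown, so no peak's absence has a detection limit.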

Other observations

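Long non-coding RNA genes held few peaks. Of 26 with a control peak, 14 were lost (53.8%, 33.4 to 73.4), beside 40.7% of 2447 protein-coding genes, and 4 of 16 with a TIP peak were gained. At the level of peaks, 25 of 42 control peaks in these genes were lost (59.5%), beside 64.7% in protein-coding genes.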
